A study of Mus musculus with 14 samples.

Results

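The aorta was compared between 2 genotypes of mice, BT3xHuBL and HuBL, across the whole transcriptome. The libraries were chosen by tissue and genotype label: 3 HuBL and 3 BT3xHuBL aorta libraries, 6 of the 14 libraries of the study, numbered 1 to 3 in each genotype as in the sample titles. All 6 carry the same labels for diet, a normal laboratory diet, and for time, 52 weeks, and the liver libraries were not used. The labels give the genotypes only as HuBL and BT3xHuBL. As the field has used the name, a HuBL mouse expresses human apolipoprotein B from a transgene on a background without the low-density lipoprotein receptor, so both genotypes here would share these alleles. BT lines add a T cell receptor transgene whose product recognises apolipoprotein B, and BT3xHuBL is then the cross of such a line with HuBL. The sources used here do not give the promoter that drives each transgene, the sex of the mice, the time of day at collection, or whether the 52 weeks count age or diet. Nor do the labels say whether each library of a genotype is a separate animal. The p-values therefore measure only the spread between these libraries, which may be technical.

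The wall of a large artery holds contractile smooth muscle cells, an inner endothelium and an outer adventitia of fibroblasts, nerve and fat. In animals with high plasma cholesterol, macrophages load lipid in the inner layer and form plaques, and T cells, B cells and plasma cells gather in the plaque and the adventitia. Helper T cells direct these cells through cytokines, among them interferon gamma and interleukin-10, and help B cells to switch antibody class. The vessel wall also runs a circadian clock, in which the activators Bmal1 and Clock drive their own repressors, so that clock genes peak at opposite times of the day.

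Depth was 41933263 to 65539765 counts per library over 24732 features, and the 10 most abundant features took 7.35% to 8.65% of the counts. Spearman correlations of log2 CPM (counts scaled to a common library total) between libraries, taken across tested features, lay between 0.989 and 0.9941. That highest value joined HuBL 1 and the library labelled BT3xHuBL 3, each of which had the other as its closest library. On the first principal component (27.4% of the variance) HuBL 1 to 3 lay at −27.5, 1.4 and −20.1, BT3xHuBL 1 and 2 at 26.4 and 39.7, and the library labelled BT3xHuBL 3 at −19.9, among the HuBL libraries. On the second (21.9%) the same library lay at 32.8, above HuBL (−33 to −4.97) and nearest to BT3xHuBL 1 at 25.7. Smooth muscle transcripts, which define the labelled tissue, were abundant: Acta2, smooth muscle actin, measured 6000, 5417 and 4911 CPM in the HuBL libraries against 4829, 4272 and 6156 CPM in BT3xHuBL.

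T cell receptor counts were set beside the genotype labels. T cell clones against apolipoprotein B described in earlier work of this field carried the beta chain segment Trbv31. The sources used here do not say which segments the BT3 transgene uses. Trbv31 took 8.4% (10 of 119 beta chain segment counts), 0% (0 of 60, exact 95% upper limit 5.96%) and 0.532% (1 of 188) in HuBL 1 to 3. Its share was 39.5% (32 of 81, exact 95% interval 28.8% to 51%) in BT3xHuBL 1 and 34.9% (38 of 109, 26% to 44.6%) in BT3xHuBL 2, but 5% (2 of 40, 0.611% to 16.9%) in the library labelled BT3xHuBL 3. Trav14-1, an alpha chain segment, had 0, 0 and 0 counts in HuBL and 4, 52 and 0 in BT3xHuBL. The constant region Trac had 64, 45 and 75 counts in HuBL and 115, 141 and 63 in BT3xHuBL. The library kit counts 3′ ends, so variable segment counts are a limited measure of segment use. Alpha chain segments together outnumbered Trac in every library, with 256 counts in HuBL 1, and Trav14-3 led in each (29.9% to 50%). The library labelled BT3xHuBL 3 was like HuBL in its Trbv31, Trav14-1 and Trac counts. Its leading beta chain segment was Trbv17, with 12 of 40 counts (30%), against a median of 0.532% in the other libraries. As the segments of the BT3 transgene are not given, these few counts do not decide its label. All intervals cover counting error only. The library stays in its labelled group below, and results that turn on it are given with and without it.

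With all 6 libraries, 4 genes of 15400 tested differed between the genotypes: the circadian output gene Dbp and the sarcomere gene Tcap rose in BT3xHuBL, and the antibody light chain segments Igkv10-96 and Igkv8-30 fell. These 4 (0.026%) passed edgeR's quasi-likelihood test at a Benjamini-Hochberg adjusted p of 0.05, 2 in each direction, and 629 features had an unadjusted p under 0.05 where 770 would be expected with no difference. The median log2 fold change of BT3xHuBL over HuBL over all tested features was −0.00438, with 48.5% above 0. Well-expressed genes were measured closely: of 9751 features with a mean of at least 10 CPM, 9586 (98.3%) had a 95% interval within 2-fold in either direction. DESeq2 called 68 features and limma-voom 0 (687 with an unadjusted p under 0.05) on the same counts. edgeR called 2 without HuBL 1, 0 without HuBL 2 (653 unadjusted), 0 without HuBL 3 (504 unadjusted) and 27 of 15681 (0.172%) without the library labelled BT3xHuBL 3, among them all of the 4.

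**Figure D1:**
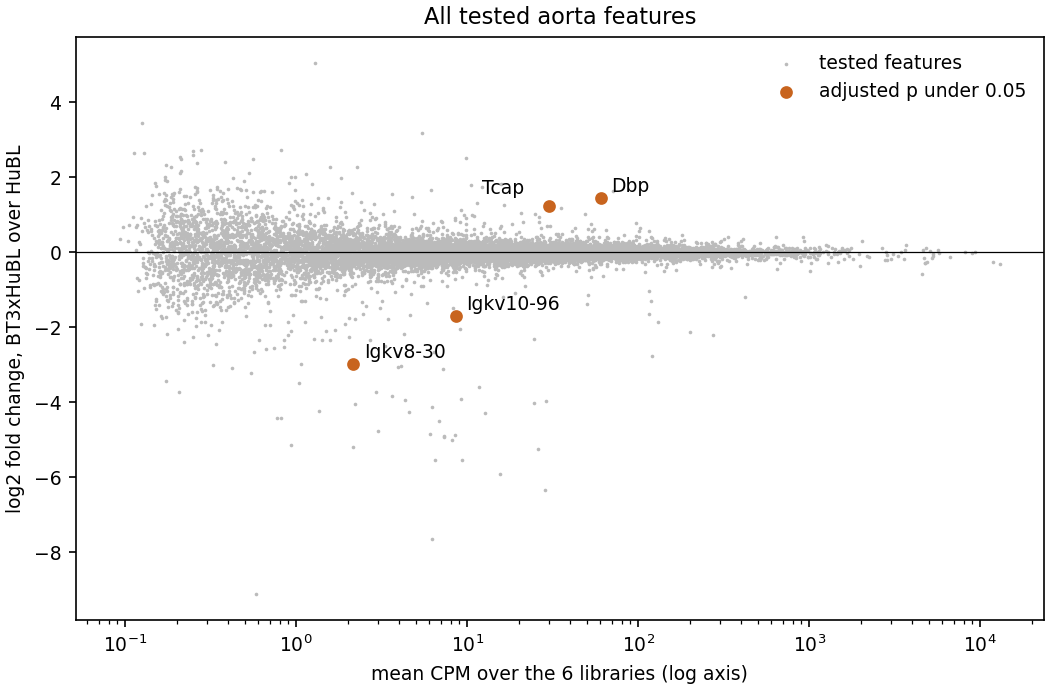
Log2 fold change of BT3xHuBL over HuBL (y axis) against mean CPM over the 6 libraries (x axis, log scale) for the 15400 tested aorta features, 1 point each. The 4 features with an edgeR adjusted p under 0.05 are named, and most points of higher level lie close to 0.

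Dbp encodes a transcription factor of the PAR bZIP family that carries the rhythm of the clock to other genes. Dbp measured 32.2, 32.4 and 32.7 CPM in the HuBL libraries against 98.98, 96.98 and 68.2 CPM in BT3xHuBL. The 3 HuBL libraries lay within 1 CPM of each other, every BT3xHuBL library was above them, and the library labelled BT3xHuBL 3 was the lowest of its group. For Dbp the log2 fold change came to 1.44 (SE 0.13), at an adjusted p of 0.0089 in edgeR, and it was 1.6 (adjusted p = 3.41e-05) without the library labelled BT3xHuBL 3. Leaving out a HuBL library ended the call, with adjusted p of 0.0651 to 0.165. Tcap encodes telethonin, which caps titin at the Z-disc of striated muscle. Tcap measured 18.7, 19.02 and 16.3 CPM in the HuBL libraries against 48.4, 42.8 and 34.7 CPM in BT3xHuBL. Again no library of one genotype overlapped the other, the log2 fold change was 1.22 (SE 0.13), and the adjusted p was 0.0089, or 0.0651 to 0.159 without a HuBL library. In GENCODE M21 (GRCm38) both genes are protein-coding, Dbp at chr7:45705088-45710203 and Tcap at chr11:98383811-98384953. Dbp was counted under a name with a suffix read here as a mark for overlapping genes, as were 2094 of the tested features. The labels do not explain this mark. On that reading, reads of a neighbour may be part of the Dbp count. Il10ra, Foxp3 and Mb, described further on, carry the same mark.

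**Figure D2:**
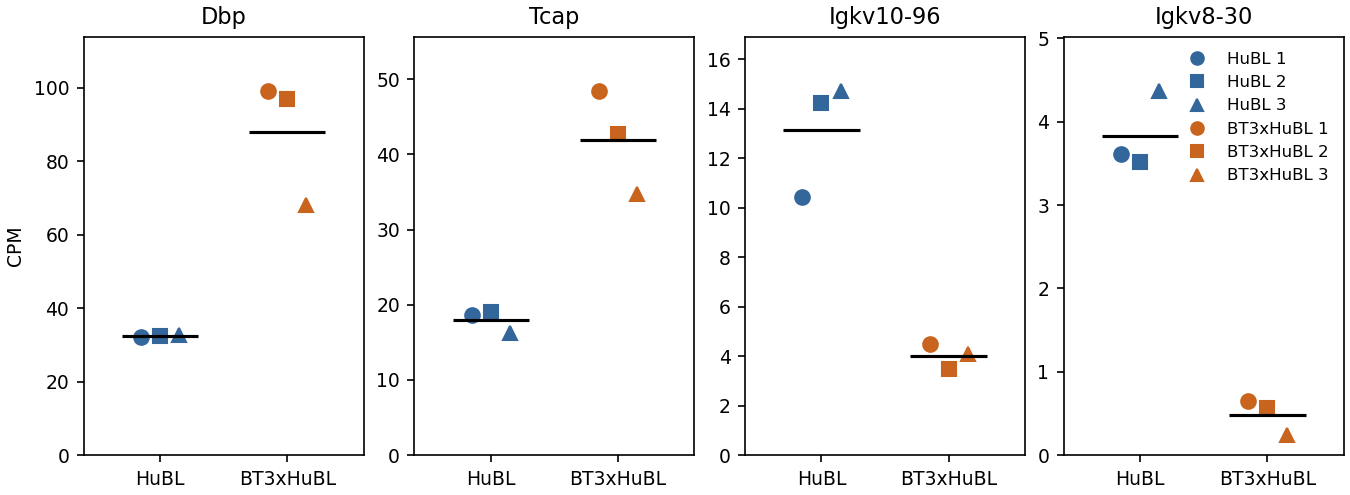
CPM (y axis, from 0) of the 4 genes that passed edgeR's test, by genotype, with 1 point per library and the group mean as a bar. For each gene the 3 BT3xHuBL libraries lie on one side of the 3 HuBL libraries.

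Igkv10-96 and Igkv8-30 are germline variable segments of the kappa light chain, on chromosome 6 at chr6:68631963-68632442 and chr6:70117061-70117620 on the minus strand (GENCODE M21, GRCm38). A B cell joins 1 such segment to a joining segment and the constant region Igkc to make its light chain. Because variable segments come in families, each of the called segments is shown with its nearest relative, over the last 150 bases of the germline transcript in GENCODE M21, 5′ to 3′, with the bases that differ within a pair in capitals.

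Igkv10-96: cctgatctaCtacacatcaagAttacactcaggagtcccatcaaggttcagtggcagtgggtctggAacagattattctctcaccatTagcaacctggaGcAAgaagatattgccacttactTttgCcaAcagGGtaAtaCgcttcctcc
Igkv10-94: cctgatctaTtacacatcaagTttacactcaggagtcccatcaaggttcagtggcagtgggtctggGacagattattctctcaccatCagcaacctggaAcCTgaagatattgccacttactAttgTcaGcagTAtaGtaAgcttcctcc
Igkv8-30: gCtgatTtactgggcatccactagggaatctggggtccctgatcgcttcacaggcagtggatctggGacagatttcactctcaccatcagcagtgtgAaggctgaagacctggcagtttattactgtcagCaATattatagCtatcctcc
Igkv8-19: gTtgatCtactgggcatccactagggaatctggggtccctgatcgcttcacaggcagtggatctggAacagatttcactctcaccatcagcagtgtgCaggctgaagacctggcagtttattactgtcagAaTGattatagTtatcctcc

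Igkv10-96 and Igkv10-94 differed at 14 of these 150 bases (90.7% identity) and Igkv8-30 and Igkv8-19 at 8 (94.7% identity). Reads that span few of the capitals could thus be counted under either name or under neither. Igkv10-96 measured 10.4, 14.2 and 14.7 CPM in the HuBL libraries against 4.51, 3.49 and 4.08 CPM in BT3xHuBL. Igkv8-30 measured 3.62, 3.52 and 4.36 CPM in the HuBL libraries against 0.646, 0.569 and 0.244 CPM in BT3xHuBL. In both segments each HuBL library was above each BT3xHuBL library, and the log2 fold changes were −1.71 (SE 0.18) and −2.98 (SE 0.36), with adjusted p of 0.0089 and 0.0247 in edgeR. The call of Igkv10-96 ended without HuBL 2 or HuBL 3 (0.0725 and 0.159), and that of Igkv8-30 without any library other than the one labelled BT3xHuBL 3 (0.0561 to 0.294). The relatives, named here for their sequence and not by their change, did not share that separation. Igkv10-94 measured 12.1, 0.342 and 1.39 CPM in the HuBL libraries against 0.332, 3.44 and 4.13 CPM in BT3xHuBL. Igkv8-19 measured 1.38, 0.245 and 0.506 CPM in the HuBL libraries against 0.0699, 0.883 and 0.0975 CPM in BT3xHuBL. Both genotypes overlapped for each of them.

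Transcripts of antibody genes as a whole were lower in every BT3xHuBL library. Features of antibody and T cell receptor genes together took 0.16%, 0.287% and 0.277% of all counts in HuBL and 0.0486%, 0.1% and 0.0708% in BT3xHuBL. In bulk tissue, fewer cells of a type and less RNA per cell cannot be told apart. Of 63 tested kappa variable segments 56 lay below 0 (median log2 fold change −1.72, against −0.00438 over all features), and 14 had no overlap with BT3xHuBL lower, where 4.9% of all features did, against 0 with BT3xHuBL higher, where 4.38% of all features did. Of 64 tested heavy chain variable segments 54 lay below 0 (median −1.41), 15 without overlap lower and 2 higher. Both called segments were kappa segments. The median SE was 1.34 for kappa and 1.2 for heavy chain segments, against 0.123 over all features. Only 63 of 103 kappa and 64 of 113 heavy chain segments passed the low-count filter. A segment can pass it by its HuBL counts alone. With antibody transcripts lower in BT3xHuBL, the filter thus favours segments below 0. Segments may also vary together, as they can come from the same cells. Their counts below 0 and without overlap are therefore no separate support for the lower total.

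The segment with most counts differed among the libraries, apart from Igkv6-25, which led in 1 library of each genotype. Among kappa segments it was Igkv17-121 (12.2% of kappa segment counts), Igkv5-48 (26.7%) and Igkv6-25 (26.8%) in HuBL 1 to 3, and Igkv6-25 (9.61%), Igkv14-111 (25.6%) and Igkv15-103 (13.8%) in BT3xHuBL 1 to 3. Among heavy chain segments it was Ighv1-81 (10.1%), Ighv1-56 (20.7%) and Ighv1-26 (30.7%) in HuBL, and Ighv1-80 (26.8%), Ighv1-82 (29.3%) and Ighv1-76 (26.9%) in BT3xHuBL. Because the libraries count 3′ ends, these shares are a limited measure of segment use. Igkv12-41 shows the spread within a genotype: it measured 0.869, 23.2 and 13.1 CPM in the HuBL libraries against 0.0873, 0.0299 and 0.0650 CPM in BT3xHuBL. HuBL 1 was far below the other HuBL libraries, all BT3xHuBL libraries were lower still, and the log2 fold change of −7.65 (SE 1.72) did not pass (adjusted p = 0.901). It passed without HuBL 1 (−8.20, adjusted p = 7.84e-05) and with DESeq2 (adjusted p = 7.03e-07).

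Constant regions of the heavy chain were lower too. The heavy chain constant regions summed to 704, 1310 and 1261 CPM in HuBL and to 214.1, 443.4 and 276.7 CPM in BT3xHuBL, without overlap. Ighm, the constant region of IgM, measured 319, 122 and 539 CPM in the HuBL libraries against 108, 59.9 and 57.3 CPM in BT3xHuBL, a log2 fold change of −2.13 (SE 0.67). From here on, a value in brackets after a gene's levels is its log2 fold change with its SE. Igha, that of IgA, measured 107, 216 and 186 CPM in the HuBL libraries against 51.6, 65.95 and 90.5 CPM in BT3xHuBL (−1.29, SE 0.35). Ighg2b, of the class IgG2b, measured 85.5, 369 and 174 CPM in the HuBL libraries against 7.42, 39.7 and 44.7 CPM in BT3xHuBL (−2.77, SE 0.97). No BT3xHuBL library reached the lowest HuBL library in any of these. Ighg1 overlapped: it measured 21.1, 161 and 287 CPM in the HuBL libraries against 18.02, 206 and 4.96 CPM in BT3xHuBL, with BT3xHuBL 2 above HuBL 1 and 2. Its log2 fold change of −1.03 (SE 1.73) became −3.76 without BT3xHuBL 2 and −0.24 without HuBL 3. Ighg2a overlapped too, at 163.5, 387 and 66.7 CPM in the HuBL libraries against 23.05, 70.6 and 76 CPM in BT3xHuBL. There HuBL 3 was below BT3xHuBL 2 and 3. So did Ighd, at 2.73, 2.35 and 2.58 CPM in the HuBL libraries against 1.96, 0.763 and 2.53 CPM in BT3xHuBL.

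Of the light chains, kappa was lower and lambda overlapped. The kappa constant region Igkc measured 291, 597 and 459 CPM in the HuBL libraries against 53.8, 160.1 and 77.4 CPM in BT3xHuBL (−2.21, SE 0.55, adjusted p = 1), without overlap. The lambda constant regions together measured 8.97, 20.1 and 19.9 CPM in the HuBL libraries against 15.8, 23.7 and 56.5 CPM in BT3xHuBL, which overlap. Lambda was thus 2.99%, 3.25% and 4.15% of light chain constant region counts in HuBL and 22.6%, 12.9% and 42.2% in BT3xHuBL. Every BT3xHuBL share was above every HuBL share, with means of 3.46% ± 0.61 and 25.9% ± 14.9 (SD over 3 libraries each). The exact two-sided permutation test gave p = 0.1, the smallest that 3 libraries against 3 allow. The highest share was that of the library labelled BT3xHuBL 3, which was also highest for Iglc1: 2.24, 13.5 and 5.46 CPM in the HuBL libraries against 13.9, 9.32 and 50.1 CPM in BT3xHuBL (1.82, SE 1.04, and 0.73 without that library). BT3xHuBL 1 and 2 alone were above HuBL in lambda share too. Iglc2 and Iglc3, named after their values were seen, lay below 0, at −0.23 (SE 0.90) and −0.71 (SE 0.49). A list of constant regions of both chains, with Ighg2a not in it, had 10 tested members, of which 9 lay below 0, all but Iglc1 (median −1.16). Of these 10, 4 had an unadjusted p under 0.05 and 0 passed edgeR's test.

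**Figure D3:**
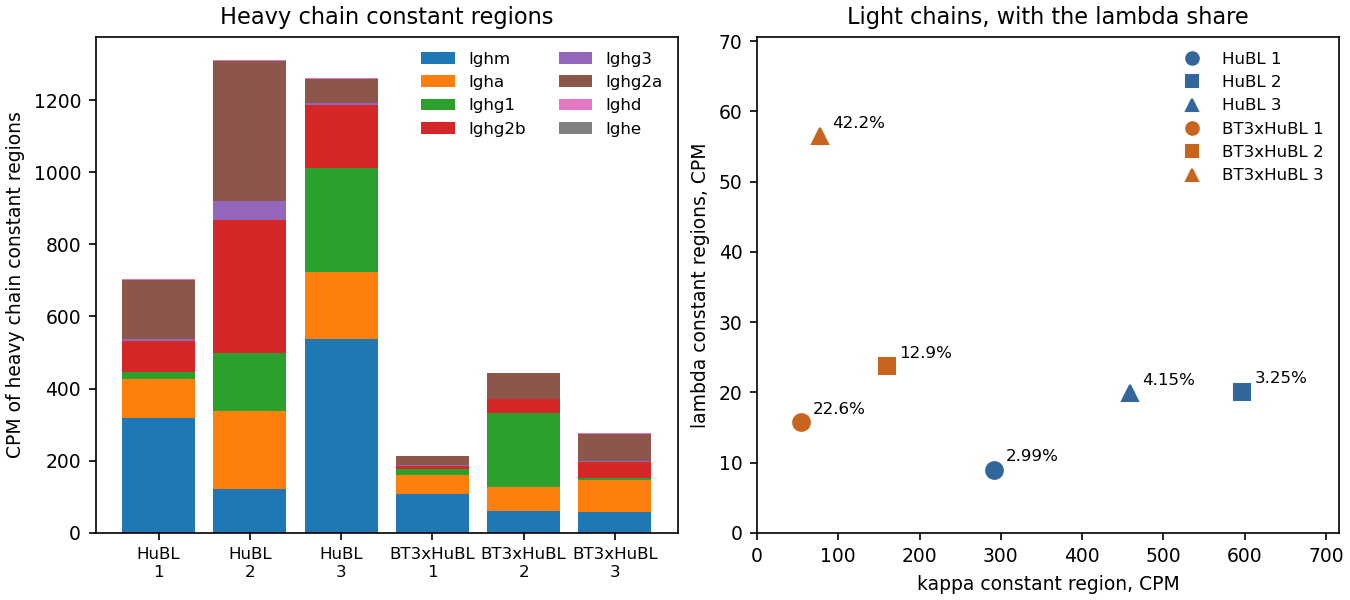
Left, stacked CPM of heavy chain constant regions per library (bars from 0). Right, CPM of the lambda constant regions (y axis) against that of the kappa constant region Igkc (x axis), 1 point per library with the lambda share of light chain counts beside it. BT3xHuBL libraries have the lowest heavy chain totals and lambda shares of 12.9% or more, against at most 4.15% in HuBL.

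Genes of B cells and of antibody secretion lay mostly below 0. Of 18 B cell genes 16 did (median −0.54), with 4 lower without overlap and 0 higher (4.9% and 4.38% of all features), 5 with an unadjusted p under 0.05 and 0 that passed edgeR's test. Their sums were close, 190.6 to 206.4 CPM in the HuBL libraries against 173.2 to 188.7 CPM in BT3xHuBL. With only features of at least 5 CPM tested, which leaves out the low B cell genes, the median was −0.053. Ms4a1, the B cell surface protein CD20, measured 2.64, 3.03 and 4.59 CPM in the HuBL libraries against 0.786, 0.838 and 1.35 CPM in BT3xHuBL (−1.79, SE 0.32, adjusted p = 0.246). Cd79a and Cd79b, through which the B cell receptor signals, were both low. Cd79a measured 2.83, 3.33 and 4.22 CPM in the HuBL libraries against 1.52, 0.778 and 1.85 CPM in BT3xHuBL (−1.32, SE 0.33). Cd79b measured 3.94, 4.40 and 4.46 CPM in the HuBL libraries against 2.39, 2.98 and 2.86 CPM in BT3xHuBL (−0.64, SE 0.20). All 3 genes were lower in each BT3xHuBL library than in each HuBL library. Cd22, an inhibitor of B cell receptor signals, measured 39.7, 37.4 and 41.5 CPM in the HuBL libraries against 33.2, 33.6 and 39.02 CPM in BT3xHuBL and overlapped (−0.17, SE 0.09).

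Of 15 genes of plasma cells and antibody secretion 13 lay below 0 (median −0.15, and −0.23 without HuBL 1), 4 with an unadjusted p under 0.05 lower and 1 higher, and the 15 together summed to 1107, 1203 and 1203 CPM in the HuBL libraries against 959.5, 1025 and 1048 CPM in BT3xHuBL. Pou2af1, the coactivator of octamer factors at antibody promoters, had the smallest p of them: 5.14, 6.63 and 9.36 CPM in the HuBL libraries against 1.28, 2.23 and 1.12 CPM in BT3xHuBL, −2.19 (SE 0.32), adjusted p = 0.0881. Jchain, which joins IgM and IgA into polymers, measured 127, 193 and 207 CPM in the HuBL libraries against 29.7, 76.4 and 61.4 CPM in BT3xHuBL (−1.65, SE 0.43). Mzb1, a chaperone of IgM assembly, measured 4.56, 7.43 and 9.24 CPM in the HuBL libraries against 0.995, 3.53 and 2.06 CPM in BT3xHuBL (−1.68, SE 0.47). In these 3 genes the genotypes did not overlap. Txndc5, a disulphide isomerase made by many secreting cells, overlapped at 357, 313 and 331 CPM in the HuBL libraries against 299.7, 303 and 329.5 CPM in BT3xHuBL (−0.10, SE 0.08). The octamer ATGCAAAT, searched on both strands, was in the RefSeq promoter (GRCm38.p6, 250 bases before to 50 after the start) of 0 of 13 plasma cell genes and 1 of 12 B cell genes that have an entry, Blnk, and in 1.74% of all 32851 promoters.

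Clock genes lay on both sides of 0, activators below and several repressors above. Of the 15 core clock genes 0 passed edgeR's test with all 6 libraries, while 6 above 0 and 3 below had an unadjusted p under 0.05. Arntl, which encodes the activator Bmal1, measured 27.6, 22.7 and 27.1 CPM in the HuBL libraries against 10.9, 9.56 and 16.1 CPM in BT3xHuBL (−1.08, SE 0.18, adjusted p = 0.273). Its partners Npas2 and Clock were named after their values were seen. Npas2 measured 22.9, 20.6 and 24.3 CPM in the HuBL libraries against 7.37, 7.11 and 15.1 CPM in BT3xHuBL (−1.20, SE 0.31). Clock measured 55.1, 54.6 and 59.95 CPM in the HuBL libraries against 45.9, 46.5 and 47.8 CPM in BT3xHuBL (−0.28, SE 0.07). For each of these activators every BT3xHuBL library was below every HuBL library, and the library labelled BT3xHuBL 3 was the one nearest to HuBL.

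Per2, which blocks the activators, measured 24.5, 22.7 and 22.9 CPM in the HuBL libraries against 37.1, 42.1 and 33.9 CPM in BT3xHuBL (0.69, SE 0.10, adjusted p = 0.0875). Per3, its relative, measured 14.4, 16.1 and 18.5 CPM in the HuBL libraries against 33.7, 42.7 and 23.98 CPM in BT3xHuBL (1.03, SE 0.20). Nr1d2, a nuclear receptor that represses Arntl, measured 75.1, 85.1 and 80.4 CPM in the HuBL libraries against 122, 152 and 103 CPM in BT3xHuBL (0.65, SE 0.13). None of these overlapped between the genotypes. Nr1d1, the other receptor of that pair, had 86.9, 95.1 and 95.97 CPM in the HuBL libraries against 176, 116 and 124 CPM in BT3xHuBL, also without overlap, and its log2 fold change of 0.58 (SE 0.15) dropped to 0.38 without BT3xHuBL 1. Per1 measured 27.1, 39.7 and 30.6 CPM in the HuBL libraries against 71.4, 88.2 and 36.7 CPM in BT3xHuBL (1.02, SE 0.37), with the library labelled BT3xHuBL 3 below HuBL 2. Ciart, a repressor named after its values were seen, measured 1.13, 1.88 and 1.96 CPM in the HuBL libraries against 4.91, 5.37 and 1.80 CPM in BT3xHuBL (1.28, SE 0.41), and here too only that library overlapped HuBL.

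Several outputs lay on the side of Dbp. Tef and Hlf are the other members of the PAR bZIP family. Tef measured 68.3, 71.1 and 75.6 CPM in the HuBL libraries against 123, 149.9 and 97.99 CPM in BT3xHuBL (0.79, SE 0.14). Hlf measured 7.99, 4.16 and 5.11 CPM in the HuBL libraries against 13.9, 14.96 and 9.15 CPM in BT3xHuBL (1.13, SE 0.27), and neither overlapped between the genotypes. Nfil3, which competes with that family for the same DNA sites, measured 25.5, 29.4 and 23.7 CPM in the HuBL libraries against 15.5, 13.1 and 21.7 CPM in BT3xHuBL (−0.65, SE 0.18) and was lower in every BT3xHuBL library. Of the core clock genes 12 lay above 0 and 3, the activators, below (median 0.23, and 0.37 without HuBL 3). Without overlap 4 were higher and 3 lower, against 4.38% and 4.9% of all features. Of the 10 output genes 7 lay above 0 (median 0.48, and 0.23 without BT3xHuBL 2), and Dbp alone passed. The core genes summed to 580, 644.7 and 634.9 CPM in the HuBL libraries against 853.6, 811.1 and 686.1 CPM in BT3xHuBL. Without the library labelled BT3xHuBL 3, edgeR called 9 of these 25 genes: Dbp, Tef, Per1, Per2, Per3 and Nr1d2 higher, and Arntl, Npas2 and Nfil3 lower. They were 9 of the 27 genes called in that fit (0.172% of 15681). That library had the smallest differences from HuBL for most of these genes. Leaving it out was therefore bound to widen them, and the added calls are no separate support. Without BT3xHuBL 1 or BT3xHuBL 2 only Dbp of the 25 was called, and without a HuBL library none was. DESeq2 called 9 of the 25 with all 6 libraries, among the 68 of 15400 features that it called. On the same counts limma-voom called none of the 25. Time of collection, which moves these genes, is not in the labels, so it and the genotype cannot be told apart.

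**Figure D4:**
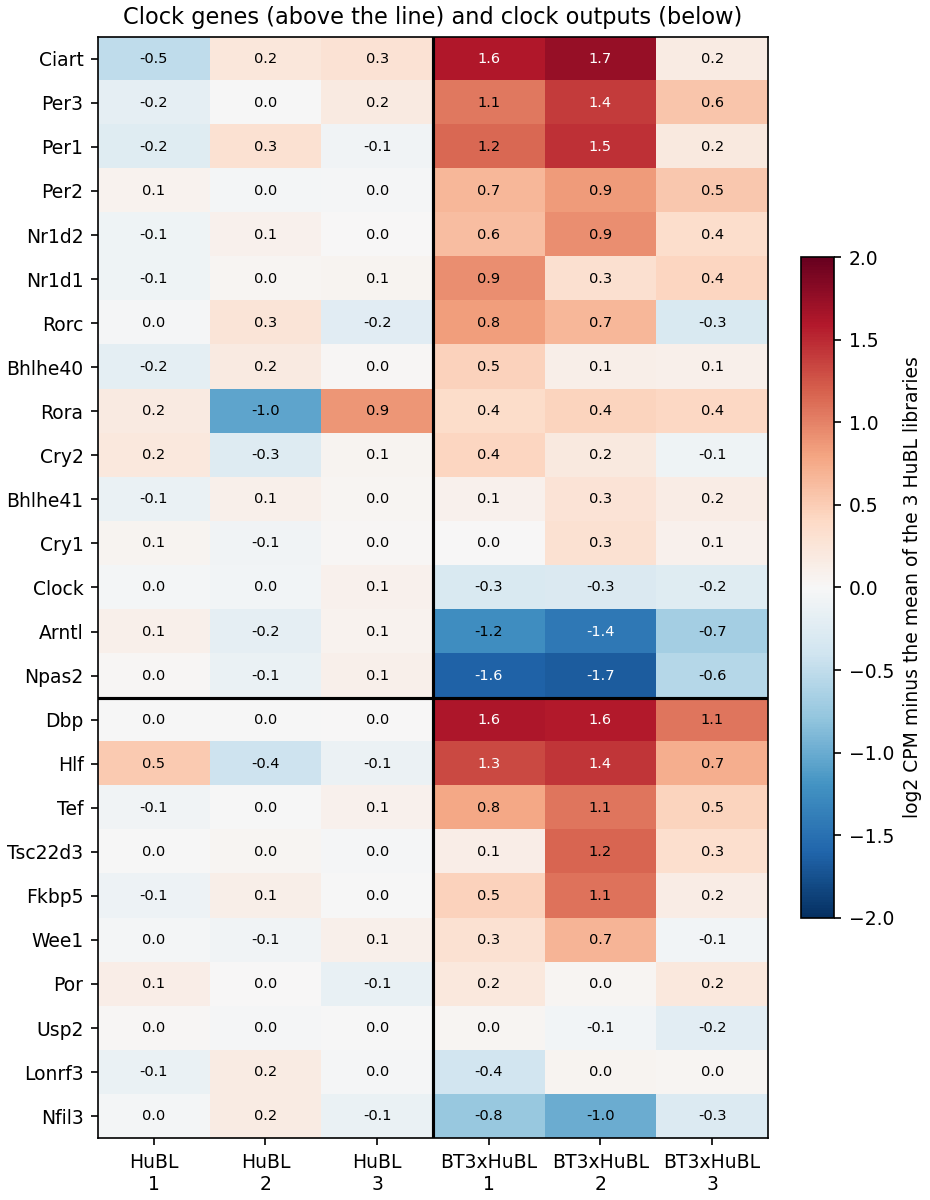
Log2 CPM of the 15 core clock genes and 10 clock outputs (rows, ordered by fold change within each group) in the 6 aorta libraries (columns), as the difference from the mean of the 3 HuBL libraries. Dbp, Tef and Per1 to Per3 are high and Arntl and Npas2 low in BT3xHuBL 1 and 2, and the library labelled BT3xHuBL 3 has the smallest differences for most genes.

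Clock factors act through short DNA elements, which were searched for in the RefSeq promoters. On either strand, the E-box CACGTG bound by the activators was in 4 of 12 core clock genes with an entry (Bhlhe41, Ciart, Cry1 and Per1) and 3 of 9 outputs (Fkbp5, Lonrf3 and Tef), against 7.15% of all promoters. The D-box TTATGTAA or TTACGTAA bound by the PAR bZIP factors and Nfil3 was in 1 of 12 and 0 of 9, against 1.06%. The ROR element TAGGTCA or AAGGTCA, where Nr1d1 and Nr1d2 repress, was in 1 of 12 (Arntl) and 1 of 9 (Nfil3), near the 7.16% of all promoters. A gene with several starts counts if any of its promoters holds the element. Shown are stretches before the start (GRCm38.p6), on the gene's strand with the elements in capitals: that of Ciart for its E-boxes, that of Per3 for its D-boxes, and those of Tef and Nfil3, which measured opposite ways.

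Ciart, chr3:95882252-95882359, minus strand: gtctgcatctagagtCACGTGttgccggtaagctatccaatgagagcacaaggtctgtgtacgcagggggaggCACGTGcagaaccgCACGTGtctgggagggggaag
Tef, chr15:81802531-81802566, plus strand: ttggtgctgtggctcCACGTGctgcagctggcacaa
Per3, chr4:151044801-151044885, minus strand: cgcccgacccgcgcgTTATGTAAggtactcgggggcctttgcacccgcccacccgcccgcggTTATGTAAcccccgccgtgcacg
Nfil3, chr13:52981040-52981066, minus strand: cgcggcgctcggaacTGACCTActaac

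Ciart has 3 E-boxes, 38 to 116 bases before its start, and Tef 1 at this start. Per3 has 2 D-boxes, and Nfil3 has the ROR element on the opposite strand. A match is a description of the letters and shows no binding.

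Interleukin-10, the cytokine in the title of the study, had few counts: 8, 11 and 15 in HuBL and 43, 69 and 35 in BT3xHuBL, or 0.124, 0.269 and 0.237 CPM in the HuBL libraries against 0.751, 1.03 and 0.569 CPM in BT3xHuBL. Each BT3xHuBL library was above each HuBL library. The log2 fold change of 1.91 (SE 0.55), with a 95% interval of 0.68 to 3.14, did not pass in edgeR, at an unadjusted p of 0.00589 and an adjusted p of 0.899. Of its receptor chains, Il10ra was slightly lower in every BT3xHuBL library at 90.3, 88.8 and 95.2 CPM in the HuBL libraries against 82.5, 87.3 and 86.6 CPM in BT3xHuBL (−0.10, SE 0.07). Il10rb overlapped at 151, 166 and 139 CPM in the HuBL libraries against 133, 152 and 144 CPM in BT3xHuBL (−0.09, SE 0.09). Maf, which activates Il10 transcription in several immune cell types, was at 42.4, 36.9 and 44.8 CPM in the HuBL libraries against 54.4, 47.4 and 45.4 CPM in BT3xHuBL (0.25, SE 0.10) without overlap. Of 13 genes of the interleukin-10 axis 5 lay above 0, 2 had an unadjusted p under 0.05 higher and 1 lower, and 0 passed.

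No gene of the T cell list came near the threshold. Of 20 T cell genes 9 lay above 0 and 11 below (median −0.022), 0 with an unadjusted p under 0.05 in edgeR. Trac measured 0.993, 1.10 and 1.19 CPM in the HuBL libraries against 2.01, 2.11 and 1.02 CPM in BT3xHuBL (0.65, SE 0.35). Trbc1 measured 0.714, 1.59 and 1.39 CPM in the HuBL libraries against 2.08, 2.05 and 0.471 CPM in BT3xHuBL (0.32, SE 0.54). In both, BT3xHuBL 1 and 2 were above all of HuBL and the library labelled BT3xHuBL 3 was not. Without that library the median of the 20 genes was 0.17. Cd4, which macrophages also express at a low level, measured 14.4, 13.5 and 12.4 CPM in the HuBL libraries against 11.02, 19.5 and 10.3 CPM in BT3xHuBL, which overlap. Cd8a, of cytotoxic T cells, measured 2.83, 2.86 and 4.16 CPM in the HuBL libraries against 3.46, 1.65 and 1.45 CPM in BT3xHuBL (−0.59, SE 0.34), which overlap too.

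Foxp3, the defining factor of regulatory T cells, had 6, 15 and 44 counts in HuBL and 1, 22 and 27 in BT3xHuBL, and its log2 fold change of −0.55 (SE 0.95) turned to 0.24 without HuBL 3. Of 14 regulatory T cell and checkpoint genes 12 lay below 0 (median −0.21, and −0.47 without HuBL 1), 0 with an unadjusted p under 0.05. Their sums overlapped, 303.6 to 321.7 CPM in the HuBL libraries against 309.9 to 318.2 CPM in BT3xHuBL, and the median was −0.0051 without the library labelled BT3xHuBL 3. Gzma, a granule protease of cytotoxic cells, was at 0.450, 0.147 and 0.206 CPM in the HuBL libraries against 0.891, 0.883 and 0.504 CPM in BT3xHuBL (1.47, SE 0.58), without overlap. Its unadjusted p was 0.0281, and it did not pass.

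Genes induced by interferon gamma and by type I interferon lay mostly on opposite sides of 0, though many genes respond to both. Of 19 interferon gamma GTPases and targets 17 lay above 0 (median 0.33, and 0.12 without BT3xHuBL 1), 6 without overlap higher and 0 lower (4.38% and 4.9% of all features), 7 with an unadjusted p under 0.05 and 0 that passed. They summed to 411.5, 393.5 and 452.5 CPM in the HuBL libraries against 684.2, 519.2 and 443.3 CPM in BT3xHuBL, where the library labelled BT3xHuBL 3 was within the HuBL range. Gbp4, a guanylate-binding protein, measured 9.92, 8.70 and 10.1 CPM in the HuBL libraries against 28.7, 25.96 and 14.5 CPM in BT3xHuBL (1.27, SE 0.24, adjusted p = 0.427). Without the library labelled BT3xHuBL 3 it passed, at 1.51 (adjusted p = 0.00105). Igtp, an immunity-related GTPase, measured 23.4, 18.7 and 21.2 CPM in the HuBL libraries against 43.03, 30.6 and 25.9 CPM in BT3xHuBL (0.65, SE 0.18). Tgtp2, of the same family, measured 9.68, 7.73 and 10.4 CPM in the HuBL libraries against 21.4, 14.2 and 12.2 CPM in BT3xHuBL (0.78, SE 0.21). These did not overlap, and without BT3xHuBL 1 their log2 fold changes were 0.42 and 0.51. Cxcl9, a chemokine that interferon gamma induces in macrophages, measured 3.57, 3.42 and 6.83 CPM in the HuBL libraries against 13.4, 7.86 and 2.68 CPM in BT3xHuBL (0.79, SE 0.63), with BT3xHuBL 1 and 2 above HuBL and the library labelled BT3xHuBL 3 the lowest of all 6.

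Of 20 genes stimulated by type I interferon 19 lay below 0 (median −0.3, and −0.17 without BT3xHuBL 2). Without overlap 3 were lower and 0 higher (4.9% and 4.38% of all features). Of the 20 genes, 8 had an unadjusted p under 0.05 and 0 passed. Their sums were 476.2, 395.4 and 514.9 CPM in the HuBL libraries against 438.4, 325.1 and 412.1 CPM in BT3xHuBL. Isg15, a ubiquitin-like modifier, measured 22.9, 16.4 and 19.8 CPM in the HuBL libraries against 12.9, 9.07 and 15.2 CPM in BT3xHuBL (−0.68, SE 0.19). Irf7, which amplifies the type I response, measured 29.6, 28.1 and 35.4 CPM in the HuBL libraries against 25.7, 17.9 and 22.5 CPM in BT3xHuBL (−0.50, SE 0.14). Mx2, an antiviral GTPase, measured 6.10, 4.62 and 5.65 CPM in the HuBL libraries against 4.09, 2.83 and 2.88 CPM in BT3xHuBL (−0.74, SE 0.21). None of the 3 overlapped between genotypes and none passed (adjusted p = 0.896 for Irf7 and 0.899 for the others).

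The element of GAAA, any 2 bases and GAAA, to which interferon-activated factors bind, was in the RefSeq promoters of 11 of 14 interferon gamma genes and 7 of 14 type I genes with an entry, against 3.44% of all promoters. A stretch from a gene of each list is shown on the gene's strand (GRCm38.p6), with the element in capitals.

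Igtp, chr11:58199507-58199546, plus strand: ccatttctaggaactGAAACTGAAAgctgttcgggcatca
Isg15, chr4:156200860-156200911, minus strand: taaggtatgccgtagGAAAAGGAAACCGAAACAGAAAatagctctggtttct

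Isg15 has 3 overlapping matches on this stretch, 56 to 78 bases before the start, and Igtp 1.

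No macrophage gene of the lists passed, and list medians were small. Of 18 genes of lipid-laden plaque macrophages 14 lay below 0 (median −0.1, and −0.028 without HuBL 2) and of 15 genes of resident-like macrophages 14 lay above (median 0.15), each with 1 unadjusted p under 0.05. The former summed to 43080 to 50210 CPM in the HuBL libraries against 37560 to 42840 CPM in BT3xHuBL, and the latter to 4723 to 5333 against 4950 to 5820 CPM. Spp1, osteopontin, measured 12560, 17350 and 13450 CPM in the HuBL libraries against 10600, 11080 and 13080 CPM in BT3xHuBL (−0.32, SE 0.15), and HuBL 1 was below the library labelled BT3xHuBL 3. Without HuBL 2 its log2 fold change was −0.17. Gpnmb, a lysosomal glycoprotein of foam cells, measured 5080, 5707 and 5156 CPM in the HuBL libraries against 3974, 4918 and 4545 CPM in BT3xHuBL (−0.25, SE 0.12, and −0.16 without BT3xHuBL 1), without overlap. Mmp13, a collagenase, measured 373, 349 and 308 CPM in the HuBL libraries against 260.3, 287 and 253 CPM in BT3xHuBL (−0.36, SE 0.09), also without overlap. C1qa and C1qb, complement chains made by resident macrophages, overlapped at 0.15 (SE 0.11) and 0.10 (SE 0.11). The resident-like median was −0.0074 without BT3xHuBL 1, so its side rests on that library.

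Of 13 tested monocyte and neutrophil genes 9 lay above 0 and 4 below (median 0.25, and 0.14 without HuBL 1), with 2 unadjusted p under 0.05 higher and 1 lower. Ly6c2, of inflammatory monocytes, measured 9.20, 16.1 and 11.4 CPM in the HuBL libraries against 5.05, 5.12 and 2.96 CPM in BT3xHuBL (−1.48, SE 0.26, adjusted p = 0.279). Chil3, a chitinase-like protein, went the other way with 1.63, 2.49 and 1.46 CPM in the HuBL libraries against 5.66, 6.96 and 3.67 CPM in BT3xHuBL (1.55, SE 0.29, adjusted p = 0.279), and passed without the library labelled BT3xHuBL 3 (adjusted p = 0.0435). In both the genotypes did not overlap. Of the neutrophil genes, S100a9 measured 3.10, 10.4 and 3.59 CPM in the HuBL libraries against 29.1, 21.6 and 5.35 CPM in BT3xHuBL. Retnlg measured 0.0931, 0.758 and 0.474 CPM in the HuBL libraries against 1.99, 2.78 and 0.747 CPM in BT3xHuBL. In both, BT3xHuBL 1 and 2 were above HuBL and the library labelled BT3xHuBL 3 was not. Of 14 dendritic cell genes 5 lay above 0 and 9 below (median −0.12, and −0.071 without the library labelled BT3xHuBL 3). Among them 1 was higher and 3 lower without overlap (4.38% and 4.9% of all features), and 2 had an unadjusted p under 0.05. Cd209a, a lectin, measured 6.81, 6.01 and 6.39 CPM in the HuBL libraries against 3.04, 1.90 and 3.98 CPM in BT3xHuBL (−1.11, SE 0.25). Flt3, a growth factor receptor of their precursors, measured 2.65, 3.74 and 3.80 CPM in the HuBL libraries against 1.89, 1.87 and 2.19 CPM in BT3xHuBL (−0.77, SE 0.24). Each was lower in every BT3xHuBL library. Complement genes lay above 0 in 16 of 16 (median 0.15), with 1 of them free of overlap, near the 4.38% of all features, and 1 with an unadjusted p under 0.05. Their sum was highest in BT3xHuBL 1, at 8679 CPM against 5402 to 6606 in the other libraries, and their median was 0.0011 without it.

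Contractile smooth muscle genes stayed close to 0. Of 18, 10 lay above 0 and 8 below (median 0.0056), 0 without overlap and 0 with an unadjusted p under 0.05. Myh11, the smooth muscle myosin heavy chain, measured 3905, 2801 and 3561 CPM in the HuBL libraries against 4400, 3182 and 4128 CPM in BT3xHuBL (0.19, SE 0.16). The interval for Acta2 was −0.42 to 0.23 on the log2 scale. Their coactivator Myocd, in contrast, measured 13.6, 12.4 and 14.4 CPM in the HuBL libraries against 34.8, 26.8 and 22.5 CPM in BT3xHuBL (1.06, SE 0.15, adjusted p = 0.0881), without overlap, and passed without the library labelled BT3xHuBL 3 (adjusted p = 0.00761).

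Beside Tcap, other genes of the striated sarcomere were measured at low levels. Actn2, the actinin of the Z-disc, had 3.34, 2.23 and 1.99 CPM in the HuBL libraries against 7.82, 6.93 and 6.35 CPM in BT3xHuBL (1.48, SE 0.23, adjusted p = 0.102). Actc1, cardiac actin, had 0.823, 0.929 and 0.901 CPM in the HuBL libraries against 1.66, 1.42 and 1.48 CPM in BT3xHuBL (0.78, SE 0.32). Mb, myoglobin, had 0.171, 0.147 and 0.237 CPM in the HuBL libraries against 0.734, 0.404 and 0.552 CPM in BT3xHuBL (1.58, SE 0.57). None of these overlapped, and of 18 tested sarcomere genes 10 lay above 0 and 8 below (median 0.18). The lowest of the 8 was at −0.75. The sum of the whole list, with Tcap in it, was 53.4, 52.5 and 48.0 CPM in the HuBL libraries against 95.4, 75.8 and 74.2 CPM in BT3xHuBL. Tcap alone made up most of that difference. The median of the list was 0.0024 without BT3xHuBL 1. Whether striated muscle from the tissue around the aorta takes part in the result for Tcap was not tested.

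Matrix proteases and their inhibitors were even, with 9 of 19 above 0 and 10 below (median −0.028). Genes of the matrix itself lay mostly below 0. Of 16 collagens 15 did (median −0.16, and −0.036 without BT3xHuBL 2 or −0.26 without the library labelled BT3xHuBL 3), 0 of them without overlap and 2 with an unadjusted p under 0.05. They summed to 19490 to 22210 CPM in the HuBL libraries against 15920 to 21120 CPM in BT3xHuBL. Col1a1, the main fibrillar collagen chain, measured 3121, 2517 and 3486 CPM in the HuBL libraries against 2633, 2215 and 3075 CPM in BT3xHuBL (−0.20, SE 0.15). Col3a1, another fibrillar chain, measured 5386, 5353 and 5920 CPM in the HuBL libraries against 5333, 4154 and 5429 CPM in BT3xHuBL (−0.16, SE 0.13). Without BT3xHuBL 2 they were −0.087 and −0.041. Eln, elastin, measured 5706, 4860 and 5743 CPM in the HuBL libraries against 3230, 2557 and 5146 CPM in BT3xHuBL (−0.58, SE 0.24). BT3xHuBL 1 and 2 were well under HuBL, while the library labelled BT3xHuBL 3 was within its range. Without that library the log2 fold change of Eln was −0.91 (adjusted p = 0.0514), and without BT3xHuBL 2 it was −0.37. Lox, the enzyme that crosslinks elastin and collagen, measured 467, 466 and 498 CPM in the HuBL libraries against 347, 369 and 442 CPM in BT3xHuBL (−0.31, SE 0.10), without overlap. Of 17 elastic fibre genes 13 lay below 0 (median −0.1), with sums of 9447 to 10500 CPM in the HuBL libraries against 6201 to 9930 CPM in BT3xHuBL, and the median was 0.00079 without BT3xHuBL 2.

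Of 19 genes of proteoglycans, hyaluronan and matricellular proteins 17 lay below 0 (median −0.21). Without overlap 4 were lower and 0 higher (4.9% and 4.38% of all features). Of the 19 genes, 4 had an unadjusted p under 0.05 and 0 passed. Their sums were 34580 to 36680 CPM in the HuBL libraries against 29260 to 34380 CPM in BT3xHuBL. Cemip, which breaks down hyaluronan, measured 80.2, 54.5 and 75.97 CPM in the HuBL libraries against 25.6, 35.9 and 35.03 CPM in BT3xHuBL (−1.13, SE 0.18, adjusted p = 0.293). Ccn1, a matricellular protein induced by stretch and serum, measured 623, 505 and 637 CPM in the HuBL libraries against 137, 237 and 399 CPM in BT3xHuBL (−1.19, SE 0.42). Thbs1, thrombospondin, measured 1272, 1042 and 1211 CPM in the HuBL libraries against 674, 864 and 972 CPM in BT3xHuBL (−0.49, SE 0.14). Fn1, fibronectin, was at 12770, 13160 and 13220 CPM in the HuBL libraries against 10080, 10600 and 11920 CPM in BT3xHuBL (−0.26, SE 0.12). For each of these every BT3xHuBL library was below every HuBL library. Tgfb2, a TGF beta ligand, lay the other way at 90.3, 74.9 and 96.5 CPM in the HuBL libraries against 121, 126 and 103 CPM in BT3xHuBL (0.42, SE 0.11). Id1, a target of BMP signals, was at 17.2, 17.1 and 15.1 CPM in the HuBL libraries against 26.4, 25.2 and 20.1 CPM in BT3xHuBL (0.54, SE 0.12). Neither overlapped between the genotypes, and neither passed.

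**Figure D5:**
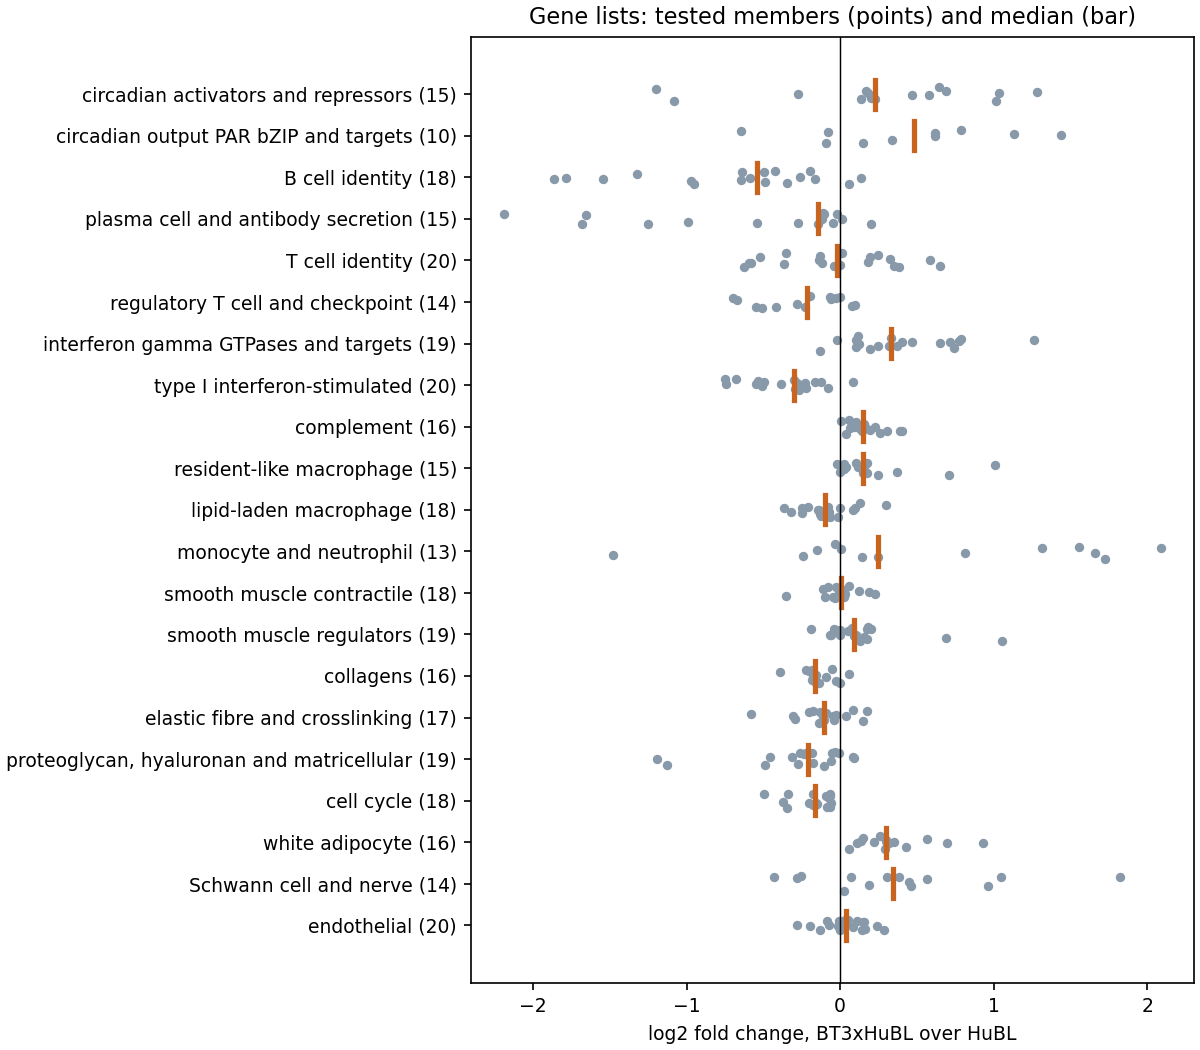
Log2 fold change of BT3xHuBL over HuBL (x axis) of the tested members (points) of selected gene lists (rows, number tested in brackets), with the median as a bar. Members of the B cell and plasma cell lists reach furthest to the left of 0, clock genes spread to both sides, and contractile smooth muscle and endothelial genes stay near 0.

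Markers of tissue next to the vessel also varied. White adipocyte genes lay above 0 in 16 of 16 (median 0.3, and 0.15 without HuBL 3). Among them 3 were higher without overlap (4.38% of all features), and 3 had an unadjusted p under 0.05. The sum of all 16 was 3909, 3781 and 2672 CPM in the HuBL libraries against 4559, 2466 and 4493 CPM in BT3xHuBL, which overlap. Pnpla2, the triglyceride lipase, measured 147, 135 and 118 CPM in the HuBL libraries against 183, 161 and 166 CPM in BT3xHuBL (0.35, SE 0.10). Of 14 Schwann cell and nerve genes 11 lay above 0 (median 0.35, and 0.068 without BT3xHuBL 2), and of 7 blood cell genes 6 did (median 0.6, and 0.16 without BT3xHuBL 1), with sums of 11.5 to 20.0 CPM in the HuBL libraries against 13.3 to 28.5 CPM in BT3xHuBL. Endothelial genes were even, 13 of 20 above 0 (median 0.037). The part of these tissues in the results above was not tested.

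Some of the genes of smallest p belong to none of these groups. Tent5b, a noncanonical poly(A) polymerase, measured 6.97, 6.23 and 6.50 CPM in the HuBL libraries against 12.8, 11.7 and 10.4 CPM in BT3xHuBL (0.82, SE 0.14). Cys1, a protein of the primary cilium, measured 11.4, 11.2 and 13.3 CPM in the HuBL libraries against 21.5, 19.5 and 17.4 CPM in BT3xHuBL (0.70, SE 0.12). Rasl10b, a small GTPase, measured 20.5, 19.1 and 17.7 CPM in the HuBL libraries against 42.4, 29.5 and 27.9 CPM in BT3xHuBL (0.80, SE 0.15). Each was above HuBL in every BT3xHuBL library, as was Nfatc2, a calcium-dependent transcription factor, with a log2 fold change of 0.49 (SE 0.11). Leo1, a subunit of the PAF elongation complex, measured 25.8, 22.9 and 23.7 CPM in the HuBL libraries against 15.7, 16.6 and 18.6 CPM in BT3xHuBL (−0.51, SE 0.10). Ecrg4 measured 24.6, 28.02 and 19.99 CPM in the HuBL libraries against 14.6, 16.7 and 17.9 CPM in BT3xHuBL (−0.56, SE 0.13). Rasl11a, another small GTPase, measured 16.9, 17.3 and 18.4 CPM in the HuBL libraries against 11.8, 10.2 and 13.5 CPM in BT3xHuBL (−0.57, SE 0.12), and these 3 were below HuBL in every BT3xHuBL library. Adjusted p in edgeR lay between 0.193 and 0.586 for the 7 genes, so none of them passed.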

How the data were processed

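Gene-level read counts of 6 aorta libraries were analysed. Per the labels' protocols, a Qiagen RNeasy mini kit gave the RNA and Lexogen QuantSeq V2, which counts 3′ ends, the libraries. The authors deposited raw counts per feature, and the submitters' processing notes name HTSeq 2.0 and the GRCm38 build. The sources used here do not give the aligner, annotation or strand setting, so antisense and overlapping genes may share reads.

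After the filterByExpr filter and TMM scaling, BT3xHuBL was compared with HuBL by the quasi-likelihood test of edgeR 4.0.16 (R 4.3.3) with robust fitting and a prior count of 0.125, with Benjamini-Hochberg adjustment over all 15400 tested features. The SE was the absolute log2 fold change divided by the square root of F. Alternatives used DESeq2 1.42.0, limma 3.58.1 with voom, other scalings and filters, a replicate block and leaving out each library. Depth was 41933263 to 65539765 counts per library.

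Gene positions came from GENCODE M21, in which 14640 of the 15400 tested features were found by symbol, and promoters from RefSeq (GRCm38.p6). Named genes were called genes, the 15 of smallest p per direction with a mean of at least 1 CPM, members of lists with the smallest p or highest level, the features of largest fold change, leading receptor segments, and a set of genes of interest. Npas2, Clock, Ciart, Iglc2, Iglc3, Igkv10-94 and Igkv8-19 fall outside this rule. The lists and named genes were chosen with earlier results of these data known. A list is described by counts and its median beside those over all features. Across the same-numbered libraries of the genotypes, correlations of deviations from the group means were −0.0575, 0.135 and 0.00722. Those across unlike numbers ranged from −0.139 to 0.142. With 3 libraries per genotype, these values cannot decide whether the numbers pair the libraries.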

Additional observations from a re-analysis of the deposited data

How the results depend on the processing

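Depth limits genes of few counts, such as T cell receptor segments, Foxp3 and Il10. The count of genes called with adjusted p under 0.05 was 4 (2 higher, 2 lower). It was 4 (2 higher, 2 lower) under the other scalings, 9 (5 and 4) with no low-count filter, 3 (2 and 1) with a mean of at least 5 CPM and 3 (2 and 1) without robust fitting. It was 68 (30 and 38) with DESeq2, 0 (0 and 0) with limma-voom, and 14 (5 and 9) with the replicate block. Whether the replicate numbers pair the libraries is not known. Leaving out 1 library in turn gave 0 to 27 genes, 0 to 15 higher and 0 to 12 lower. The cause was not tested. These log2 fold changes turned sign. Acta2 ranged from −0.259 to 0.0173 (without BT3xHuBL 2), Foxp3 from −1.12 to 0.24 (without HuBL 3) and Trbc2 from −0.0849 (without BT3xHuBL 1; −0.0572 without HuBL 1) to 0.507 when 1 library was left out. Cd4 ranged from −0.333 (without BT3xHuBL 2; −0.0349 without HuBL 3) to 0.181, and was −0.0278 with limma-voom and −0.0464 with the replicate block. Igkv10-94 ranged from −1.35 to 1.57 (without HuBL 1) and was 0.503 with the replicate block. The median of the resident-like macrophage list ranged from −0.00743 (without BT3xHuBL 1) to 0.184, that of elastic fibre genes from −0.164 to 0.000791 (without BT3xHuBL 2), and that of cathepsins from −0.0637 to 0.00799 (without BT3xHuBL 1; 0.00625 without HuBL 2).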

Other observations

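Cell cycle genes lay below 0 in 18 of 18 (median log2 fold change −0.16, against −0.00438 over all features), 3 lower without overlap (4.9% of all features) and 3 with an unadjusted p under 0.05. They summed to 315.1, 337.9 and 319.7 CPM in the HuBL libraries against 280.1, 297 and 283.6 CPM in BT3xHuBL, so that each BT3xHuBL library was below each HuBL library. None passed edgeR's test, and the median lay between −0.18 and −0.12 when 1 library was left out.

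Of 14 genes of the glucocorticoid response 11 lay above 0 (median 0.11, and 0.021 without BT3xHuBL 2), 4 with an unadjusted p under 0.05 higher and 1 lower. Their sums were 1559, 2251 and 1473 CPM in the HuBL libraries against 1886, 2143 and 1683 CPM in BT3xHuBL, which overlap. This list shares members with the clock and its outputs. Genes of oxidative phosphorylation and glycolysis were even, with medians of −0.012 and −0.019.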
